A study of Mus musculus with 22 samples.

Results

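Granzymes and other genes of intraepithelial lymphocytes were followed in the terminal ileum, the last stretch of the small intestine, of mice of the NOD strain, which is inbred and prone to autoimmune diabetes. The set held 10 of the 18193 genes measured: Gzma, Gzmb, Prf1, Ccl5, Cd8a, Cd8b1, Itgae, Klrd1, Cd160 and Cd244. Each was found by its symbol in the platform annotation, except Cd244, which stands there as Cd244a and was matched by gene ID, and each gene is represented by its brightest probe set by mean over the 22 arrays. All 10 had at least 1 probe set, and no filter on low values was applied to them. The tissue came from PAT mice (3 females and 5 males), which had antibiotics in pulses of therapeutic dose, from STAT mice (3 females and 3 males), which had antibiotics at a sub-therapeutic level, and from control mice (3 females and 5 males). All were NOD mice with no engineered allele named in the labels. The sources used here give no drug, dose or age. Each array held 1 sample; since the labels do not state that each sample is another animal, p-values measure only how far these samples vary, which may be technical variation.

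Intraepithelial lymphocytes are T cells, and some other lymphocytes, that lie between the epithelial cells of the gut. Many carry the CD8 coreceptor, and the integrin alpha E beta 7 holds them to E-cadherin on the epithelium. They store granzymes, which are serine proteases, and perforin, the pore-forming protein that lets granzymes into a target cell, in cytotoxic granules, and they carry receptors otherwise typical of natural killer cells. Values are log2 expression, so that a difference of 1 is a 2-fold change, and levels of different probe sets cannot be compared with each other. A gene was called when its adjusted p in limma, a linear model with a pooled estimate of the spread, was under 0.05 over all genes (Benjamini-Hochberg). Differences for both sexes are the mean of the female and the male difference, written as log2 difference ± SE. The tissue was whole, so fewer lymphocytes and less RNA per lymphocyte cannot be told apart in any value below.

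Arrays that stand apart touch some of the results. PAT female 1 had a mean of 7.22 over 4 B cell markers (Ms4a1, Cd79a, Cd79b and Pax5), where the other 21 arrays had 4.91 to 5.41, and a mean of 6.26 over 4 T cell markers (Cd3d, Cd3e, Cd3g and Cd2), against 5.33 to 5.81 elsewhere. Among measures of RNA integrity, beta-actin control probe sets gave a 3-prime minus 5-prime log2 difference of 0.589 and 0.601 in STAT males 2 and 3, and of 0.283 to 0.418 in the remaining 20 arrays. The Gapdh control probe sets averaged -0.156 ± 0.056 in PAT males and -0.236 ± 0.034 in control males (SD, n = 5 each), and -0.072 ± 0.042 in PAT females and -0.154 ± 0.058 in control females (SD, n = 3 each). The same 2 STAT arrays had the lowest epithelial markers, with means of 12.5 and 12.6 over 5 genes, where the remaining 20 arrays had 12.9 to 13.4, and the highest smooth muscle markers, with means of 12.16 and 12.149 over 3 genes, where the others had 10.948 to 12.104. Of the 3 ileal markers, limma called 2 higher in PAT than in control mice with both sexes together, where 4.61% of all genes were called higher. These were Fabp6, by 0.21 ± 0.07 (adjusted p = 0.0487 in limma), and Fgf15, by 2.16 ± 0.52 (adjusted p = 0.0104). Both were also called higher in PAT than in STAT mice (2.89% of all genes), while Slc10a2 was not called. Their part in the results below was not tested. None of the 4 T cell markers was called by limma in PAT or STAT mice against controls. With both sexes together 0 of 4 had an unadjusted p under 0.05 in limma, against 24.1% of all genes with PAT and 13.1% with STAT. These counts include PAT female 1, and the markers were not fitted without it. The mean of the 4 was 5.425 and 5.434 in PAT females 2 and 3, 5.361 to 5.606 in STAT females and 5.573 to 5.706 in control females. In males it was 5.333 to 5.581 with PAT, 5.347 to 5.504 with STAT and 5.539 to 5.805 in controls. In males 1 of 4 had an unadjusted p under 0.05 in each comparison, against 25% of all genes with PAT and 15.7% with STAT. That marker, Cd3g, averaged 5.09 ± 0.21 in PAT males (SD, n = 5), 5.11 ± 0.25 in STAT males (SD, n = 3) and 5.76 ± 0.33 in control males (SD, n = 5), at log2 differences of -0.66 ± 0.22 with PAT (adjusted p = 0.0648 in limma) and -0.64 ± 0.26 with STAT (adjusted p = 0.224).

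The 2 granzymes were lower in PAT ileum, perforin was called lower by only 1 of its 2 probe sets, and the other 7 genes were not called. With both sexes together, limma called 3 of the 10 genes lower in PAT mice than in controls (Gzma, Gzmb and Prf1) and 0 higher, where 6.38% of all genes were called lower and 4.61% higher. In males 2 of 10 were lower (Gzma and Gzmb, background 6.68%) and 0 higher (background 2.34%), and in females 1 of 10 was lower (Gzma, background 1.08%) and 0 higher (background 2.27%). The median log2 difference of the 10 genes, PAT minus control, was -0.08, against 0.00 over all genes. For STAT minus control it was -0.12, against -0.004 over all genes. No gene of the set was called in STAT mice against controls, as was the case for all 18193 genes (background 0%), although 3 of the 10 genes had an unadjusted p under 0.05 in limma with both sexes together, as did 13.1% of all genes. The female effect minus the male effect was called for 0 of the 10 genes for PAT, where 0.00550% of all genes were called, and for STAT, where 0% were. At an unadjusted p under 0.05 in limma it was 1 of the 10 genes for PAT, against 18.6% of all genes, and 1 of 10 for STAT, against 3.44%. The PAT and STAT comparisons use the same control arrays, so their values are given side by side and not as independent results.

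Gzma encodes granzyme A, a protease that cuts after basic residues. Its gene lies on chromosome 13 at chr13:113093824-113100981 (GRCm38.p6, minus strand), and 1 probe set measured it. The log2 level of Gzma was 6.77, 5.64 and 5.57 in PAT females, 7.02, 7.54 and 7.15 in STAT females and 7.64, 8.14 and 7.27 in control females. It was 5.97, 6.32, 6.17, 6.16 and 6.40 in PAT males, 7.96, 5.69 and 6.19 in STAT males and 7.75, 8.02, 7.51, 7.61 and 7.49 in control males. All 8 PAT arrays lay below all 8 control arrays, the PAT females lay below the STAT females too, and the STAT males were split, with replicate 1 among the controls and replicates 2 and 3 below them, within or under the range of the PAT males. Such a gap below control was found for 5.29% of all genes in males, 13.2% in females and 1.81% in each sex.

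With PAT, Gzma fell by 1.58 ± 0.24 in log2 units (3.00-fold; limma, adjusted p = 0.00033), with a 95% interval of the log2 difference from -2.09 to -1.07. The log2 difference was -1.69 ± 0.39 in females (3.23-fold, adjusted p = 0.0234) and -1.47 ± 0.30 in males (2.78-fold, adjusted p = 0.00481) by limma, and the female effect minus the male effect was -0.22 ± 0.49 (adjusted p = 0.824). In females the call was lost with 4 of the 6 arrays left out in turn, and the limma adjusted p ranged from 0.0146 to 0.106. Once the Gapdh difference entered the fit, the PAT difference of both sexes was -1.21 ± 0.26 (adjusted p = 0.00929 in limma), in females -1.32 ± 0.38 (adjusted p = 0.0958). With both sexes together Gzma was called in all 16 fits that left out 1 array, at -1.78 to -1.47.

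Gzmb encodes granzyme B, which cuts after aspartate and activates caspases. Its gene lies at chr14:56258836-56262334 (GRCm38.p6, minus strand), and 1 probe set measured it. The log2 level of Gzmb was 5.87, 5.95 and 5.35 in PAT females, 6.25, 6.66 and 6.37 in STAT females and 6.50, 6.70 and 6.38 in control females. It was 5.55, 5.91, 5.83, 5.74 and 6.21 in PAT males, 7.05, 5.37 and 5.94 in STAT males and 6.80, 7.26, 6.45, 7.07 and 6.68 in control males. As for Gzma, each PAT group lay wholly below the control group of its sex, which held for 1.81% of all genes. STAT male 1 stood apart from STAT males 2 and 3.

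With PAT, Gzmb fell by 0.90 ± 0.18 in log2 units with both sexes together (1.87-fold, adjusted p = 0.00286 in limma; 95% interval -1.28 to -0.53). In males the log2 difference was -1.003 ± 0.222 (adjusted p = 0.00819 in limma). Gzmb was not called in females, where it was -0.80 ± 0.29 (adjusted p = 0.11 in limma), and the female effect minus the male effect was 0.20 ± 0.36 (adjusted p = 0.781). All 16 fits that left out 1 array kept the call for both sexes, with values from -0.96 to -0.81. The call was lost once the Gapdh difference entered the fit, at -0.63 ± 0.19 (adjusted p = 0.076 in limma), and with the beta-actin difference it held, at -0.81 ± 0.16 (adjusted p = 0.00181). In males too the Gapdh difference ended the Gzmb call, at -0.73 ± 0.22 (adjusted p = 0.0586 in limma).

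The sequences upstream of both granzyme genes are shown because these 2 genes carried the largest differences of the set. They are the 250 bases before each annotated start, from RefSeq on GRCm38.p6 (a C57BL/6J assembly, not NOD), at chr13:113100982-113101231 for Gzma and chr14:56262335-56262584 for Gzmb, both on the minus strand and written 5′ to 3′. Capitals mark TGTGGT, the core motif of the RUNX transcription factors, or its reverse complement.
Gzma: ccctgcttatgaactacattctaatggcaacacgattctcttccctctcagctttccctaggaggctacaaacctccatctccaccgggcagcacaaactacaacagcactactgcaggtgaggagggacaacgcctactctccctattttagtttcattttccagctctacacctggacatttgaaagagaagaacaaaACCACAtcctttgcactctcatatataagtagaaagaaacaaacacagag
Gzmb: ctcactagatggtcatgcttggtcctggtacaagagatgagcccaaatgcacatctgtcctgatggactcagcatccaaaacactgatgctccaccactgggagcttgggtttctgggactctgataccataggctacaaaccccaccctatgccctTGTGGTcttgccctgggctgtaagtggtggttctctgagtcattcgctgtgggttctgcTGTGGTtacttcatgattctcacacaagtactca
The Gzma window held 1 match that began 50 bases before the start, and the Gzmb window held 2, beginning 93 and 34 bases before it. Of 32851 promoter windows of the same length in the RefSeq table, 14.05% held this motif on either strand. The Gzmb window also held the AP-1 motif TGANTCA, beginning 58 bases before the start, which 6.75% of all windows held, and this match overlapped neither RUNX match. Neither window held the T-box motif GGTGTGA (3.33% of all windows) or the interferon-type GAS motif TTCNNNGAA (7.02% of all windows). Across the set, 6 genes had 7 windows in the table, and 5 windows of 4 genes (Gzma, Gzmb, Prf1 and Cd160) held the RUNX motif.

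Prf1 encodes perforin, at chr10:61297751-61304684 (GRCm38.p6). The brighter of its 2 probe sets was at log2 levels of 5.65, 5.63 and 5.70 in PAT females, 5.98, 5.98 and 5.59 in STAT females and 5.88, 6.05 and 6.31 in control females. It was at 5.80, 5.64, 5.62, 5.73 and 5.79 in PAT males, 5.97, 5.81 and 5.74 in STAT males and 6.10, 5.95, 5.90, 5.69 and 5.57 in control males. PAT females lay below all control females, as for 13.2% of all genes, while PAT and control males overlapped.

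With PAT, Prf1 fell by 0.27 ± 0.08 in log2 units with both sexes together (1.21-fold, adjusted p = 0.0376 in limma). It was not called within either sex, with -0.42 ± 0.13 in females (adjusted p = 0.0723) and -0.13 ± 0.10 in males (adjusted p = 0.465) by limma. This call was the weakest of the 3: it was lost in 10 of the 16 fits that left out 1 array, with an adjusted p of up to 0.13, and the other Prf1 probe set had a log2 difference of 0.13 ± 0.09, in the opposite direction and not called (adjusted p = 0.483 in limma). With the mean of both probe sets the Prf1 difference was -0.07 (adjusted p = 0.574).

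Ccl5 encodes a chemokine that draws T cells and that CD8 T cells themselves make and store. The log2 level of Ccl5 was 7.59, 6.85 and 6.74 in PAT females, 7.07, 7.26 and 7.49 in STAT females and 7.22, 7.66 and 7.23 in control females. It was 7.05, 6.88, 6.68, 7.26 and 7.73 in PAT males, 7.14, 6.72 and 7.34 in STAT males and 7.41, 7.86, 7.70, 7.51 and 7.59 in control males. One array in each PAT group, female 1 and male 5, lay among the controls of its sex, and the other PAT arrays lay below them.

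Ccl5 was not called with PAT, at a log2 difference of -0.40 ± 0.15 with both sexes together (adjusted p = 0.0874 in limma; 95% interval -0.71 to -0.09), -0.31 ± 0.23 in females (adjusted p = 0.482) and -0.49 ± 0.18 in males (adjusted p = 0.0942). Without PAT female 1 the Ccl5 difference of both sexes was -0.53 (adjusted p = 0.0231 in limma), and without PAT male 5 it was -0.48 (adjusted p = 0.026). In males alone Ccl5 was at -0.64 without PAT male 5 (adjusted p = 0.0259 in limma). In PAT female 1 the mean of the T cell markers was also the highest of all arrays, as given above, and its part in the Ccl5 value was not tested.

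**Figure D1:**
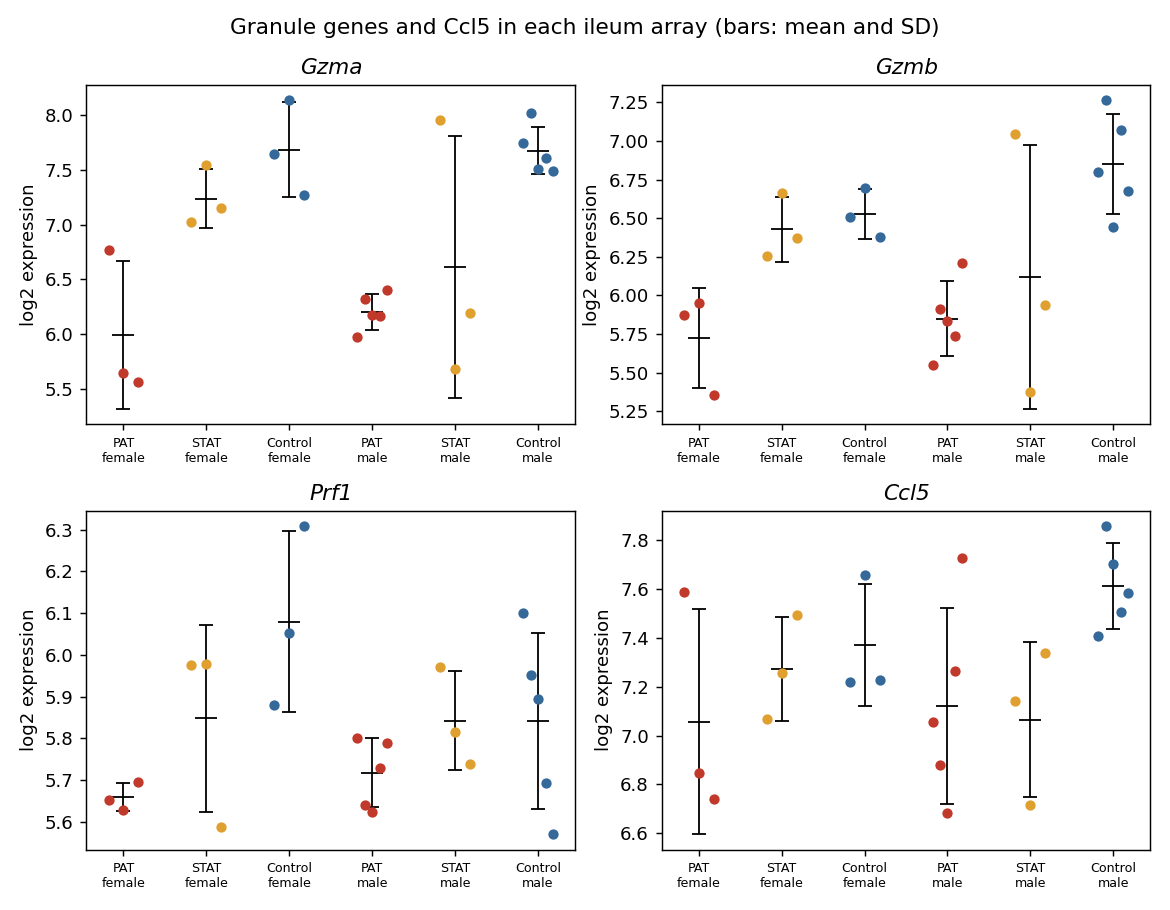
Log2 expression of Gzma, Gzmb, Prf1 and Ccl5 (vertical axes, which do not start at 0) in each of the 22 arrays, grouped by treatment and sex; points are arrays, and bars are the group mean and SD. All PAT arrays of Gzma and Gzmb lie below all control arrays of their sex, and STAT males span both ranges, with Gzma at 7.96, 5.69 and 6.19.

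In STAT ileum the granzymes were between or among the other groups, and the males were not alike. With both sexes together the log2 difference from control was -0.76 ± 0.26 for Gzma (adjusted p = 0.26 in limma; 95% interval -1.30 to -0.22) and -0.42 ± 0.19 for Gzmb (adjusted p = 0.36; 95% interval -0.81 to -0.02). The Gzma difference was -0.45 ± 0.39 in STAT females (adjusted p = 1.0) and -1.07 ± 0.35 in STAT males (adjusted p = 0.149) by limma. The female effect of STAT minus the male effect was 0.62 ± 0.52 for Gzma (adjusted p = 0.991). Prf1 was at -0.12 ± 0.09 and Ccl5 at -0.32 ± 0.16 with both sexes together, neither called (adjusted p = 0.599 and 0.388 in limma). In males all 3 STAT arrays lay below all 5 control arrays for Ccl5, as for 3.64% of all genes, at a log2 difference of -0.55 ± 0.21 (adjusted p = 0.205).

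The STAT values of the granzymes rest on which males are counted. Without STAT male 1 the Gzma difference with both sexes together was -1.09 (adjusted p = 0.00647 in limma) and the Gzmb difference -0.65 (adjusted p = 0.0184), and both passed the threshold. Without STAT males 2 and 3 the Gzma difference was -0.08 and the Gzmb difference 0.05, with only STAT male 1 left in its group. STAT males 2 and 3 are the arrays with the largest beta-actin end difference, and with that difference as a covariate the STAT difference was -0.30 ± 0.26 for Gzma and -0.09 ± 0.19 for Gzmb (adjusted p = 0.999 for both in limma). The epithelial markers were lowest in these 2 arrays. For STAT against control all 5 had an unadjusted p under 0.05 in limma with both sexes together, where 13.1% of all genes had. In males all 5 had so too, where 15.7% of all genes had. Their median log2 difference was -0.22 with both sexes together and -0.30 in males. None was called, as was the case for all 18193 genes. In the fit with the beta-actin difference the PAT difference of Gzma was -1.45 ± 0.21 (adjusted p = 0.00013).

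Set against STAT directly, PAT ileum had log2 differences of -0.83 ± 0.26 for Gzma and -0.49 ± 0.19 for Gzmb, neither called with both sexes together (adjusted p = 0.064 and 0.143 in limma). Their 95% intervals were -1.37 to -0.29 and -0.89 to -0.09. In females all 3 PAT arrays lay below all 3 STAT arrays for both granzymes, as for 11.2% of all genes. Without STAT males 2 and 3 both were called lower in PAT than in STAT mice, Gzma at -1.50 (adjusted p = 0.000776 in limma) and Gzmb at -0.95 (adjusted p = 0.00374). Limma called 1 of the 10 genes higher in PAT than in STAT mice (Cd244, background 2.89%) and 0 lower (background 2.98%).

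Gzma and Gzmb varied together between arrays. Over all 22 arrays their Pearson r was 0.925, the highest of the 45 pairs of the set, whose median was 0.132 and range -0.385 to 0.925; the treatment difference that both share enters this value. Within treatments, r was 0.546 in the 8 PAT arrays (exact permutation p = 0.155, adjusted over the 3 treatments 0.155), 0.986 in the 6 STAT arrays (exact permutation p = 0.00139, adjusted 0.00417) and 0.581 in the 8 control arrays (exact permutation p = 0.128, adjusted 0.155), all two-sided. Spearman's rho was 0.548 in PAT (exact permutation p = 0.171, adjusted 0.171), 1.0 in STAT (p = 0.00278, adjusted 0.00834) and 0.667 in control arrays (p = 0.0831, adjusted 0.125). Without the 2 arrays farthest from the median of Gzma, r was 0.35 in PAT, 0.999 in STAT (4 arrays left) and 0.582 in control arrays. After removing each group's mean, Gzma and Gzmb still had an r of 0.847 over the 22 arrays, while Gzma and Ccl5 had 0.487 and Gzma and Prf1 had 0.19. The sexes were pooled within treatments here. The STAT value and each r over the 22 arrays, with or without the group means, include the split STAT males. Their SD was 1.20 for Gzma and 0.85 for Gzmb, where the other groups had 0.16 to 0.67 and 0.16 to 0.32. The r of 0.847 was not computed without them.

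**Figure D2:**
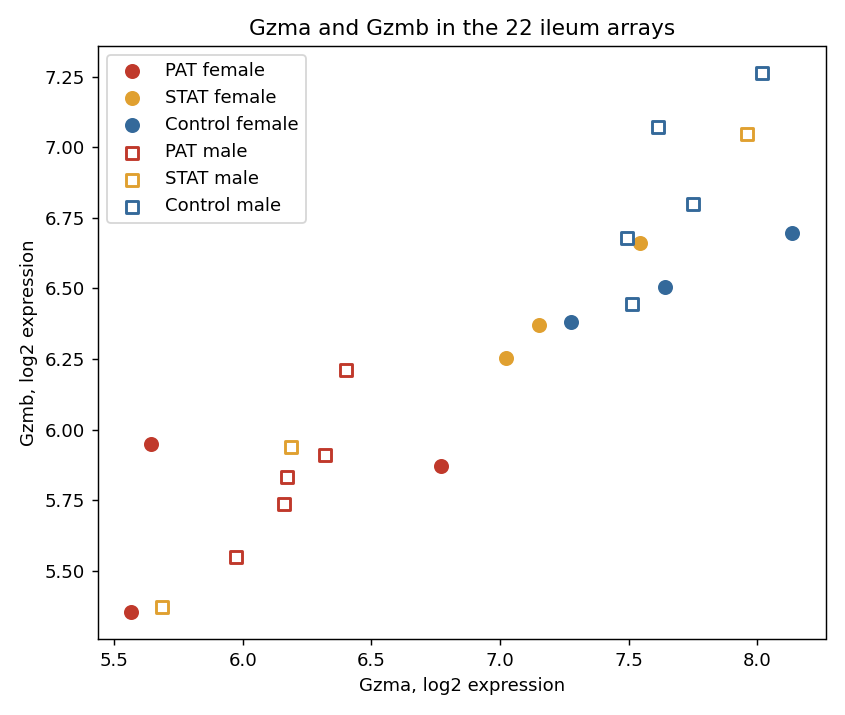
Log2 expression of Gzmb (vertical axis) against Gzma (horizontal axis) in the 22 arrays; filled circles are females and open squares males, and colours are PAT, STAT and control. The PAT arrays and STAT males 2 and 3 lie at the lower left and the control arrays at the upper right, with r = 0.925 over all arrays.

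Neither the genes of the CD8 coreceptor nor that of the integrin chain was called in any comparison. Cd8a encodes the alpha chain, which forms homodimers on many intraepithelial lymphocytes, and Cd8b1 the beta chain of the conventional CD8 heterodimer. With both sexes together the PAT difference was -0.02 ± 0.09 for Cd8a (adjusted p = 0.939 in limma; 95% interval -0.20 to 0.16) and -0.02 ± 0.11 for Cd8b1 (adjusted p = 0.938; 95% interval -0.24 to 0.20). Cd8b1 was dim throughout, at 3.67 to 4.19 in PAT females, 3.76 to 3.83 in STAT females, 3.83 to 4.31 in control females, 3.75 to 4.28 in PAT males, 3.84 to 3.97 in STAT males and 3.48 to 4.16 in control males, so a difference in it may be understated. The STAT difference was 0.00 ± 0.09 for Cd8a and -0.09 ± 0.11 for Cd8b1 (adjusted p = 0.992 and 0.77 in limma).

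Cd8a had 5 probe sets, which did not give the same picture. The brightest, of the kind whose name marks probes that can also bind other transcripts, was at 5.55, 5.44 and 5.78 in PAT females, 6.01, 5.77 and 5.67 in STAT females and 5.76, 6.04 and 5.86 in control females. It was at 5.70, 5.76, 5.87, 5.91 and 6.01 in PAT males, 5.64, 5.59 and 5.77 in STAT males and 5.21, 5.58, 5.55, 5.81 and 5.78 in control males. The PAT difference of this probe set was -0.30 ± 0.14 in females (adjusted p = 0.211) and 0.26 ± 0.11 in males (adjusted p = 0.122) by limma, and the female effect minus the male effect was -0.56 ± 0.17 (unadjusted p = 0.00363, adjusted p = 0.134), where 18.6% of all genes had an unadjusted p under 0.05. The other 4 Cd8a probe sets had PAT differences of -0.24 to -0.10 with both sexes together, and all 4 lay below 0 in males as well (-0.25 to -0.03). None was called, at an unadjusted p of 0.0206, 0.0213, 0.0389 and 0.195 in limma with both sexes together. Of all genes 24.1% had an unadjusted p under 0.05 there. Over the alternative settings, which include the mean of all probe sets, the Cd8a difference ran from -0.145 to -0.004. It was called in none of them (smallest adjusted p = 0.102 in limma).

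Itgae encodes the alpha E chain of the integrin, also known as CD103. Its level was 6.41, 6.48 and 5.87 in PAT females, 6.23, 6.23 and 6.36 in STAT females and 6.005, 6.28 and 5.96 in control females, and it ranged from 5.86 to 6.67 in PAT males, 6.22 to 6.44 in STAT males and 6.16 to 6.54 in control males. These ranges overlapped in both sexes. The PAT difference of Itgae was 0.05 ± 0.11 (adjusted p = 0.845 in limma; 95% interval -0.17 to 0.27), and its second probe set gave -0.01.

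Among the receptors of the natural killer type, none was called against controls without a covariate. Klrd1 encodes CD94, which pairs with NKG2 chains. Its log2 level was 4.80, 4.68, 4.70, 4.76 and 4.64 in PAT males, 4.32, 4.67 and 4.82 in STAT males and 4.96, 5.02, 5.23, 4.81 and 4.80 in control males. The PAT males lay within the range of the STAT males, and each group met the control males only at its upper edge. The differences from control were -0.25 ± 0.11 for PAT males (adjusted p = 0.148) and -0.36 ± 0.12 for STAT males (adjusted p = 0.162) by limma. In PAT males Klrd1 passed the threshold once the Gapdh difference (-0.38 ± 0.11, adjusted p = 0.0436 in limma) or the beta-actin difference (-0.28 ± 0.09, adjusted p = 0.0379) entered the fit. In females Klrd1 was 4.95, 4.85 and 4.45 with PAT, 4.87, 4.59 and 4.86 with STAT and 4.56, 4.69 and 4.70 in controls, at log2 differences of 0.10 ± 0.14 and 0.12 ± 0.14. Control females minus control males was -0.31 ± 0.12 for Klrd1 (adjusted p = 0.297 in limma). None of the 10 genes was called in that comparison of control females with control males (2 at an unadjusted p under 0.05 in limma), where 0.0550% of all genes were called.

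Cd160 encodes a receptor on intraepithelial lymphocytes and natural killer cells that binds the TNF receptor family member HVEM. It ranged from 5.61 to 5.90 in PAT females, 5.76 to 5.94 in STAT females and 5.62 to 5.94 in control females, and from 5.47 to 5.98 in PAT males, 5.59 to 5.84 in STAT males and 5.71 to 5.92 in control males. The groups overlapped throughout. Its PAT difference was -0.08 ± 0.08 (adjusted p = 0.594 in limma; 95% interval -0.24 to 0.08), and its 4 probe sets lay between -0.11 and -0.06.

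Cd244, or 2B4, is a receptor of the SLAM family that binds CD48. The log2 level of Cd244 was 5.64, 5.06 and 4.97 in PAT females, 4.90, 4.66 and 4.71 in STAT females and 4.91, 5.01 and 4.98 in control females. It was 4.95, 4.84, 4.92, 5.15 and 5.02 in PAT males, 4.83, 4.88 and 4.79 in STAT males and 4.95, 5.18, 4.97, 4.92 and 4.99 in control males. STAT arrays lay below all control arrays in each sex, and below all PAT arrays in females, where PAT female 1 was the highest array of all. Over all genes, 3.64% had such a gap between STAT and control arrays in males, 5.10% in females and 0.478% in each sex, and 11.2% had PAT arrays all above STAT arrays in females.

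PAT ileum had more Cd244 than STAT ileum by 0.30 ± 0.09 in log2 units (1.24-fold; limma, adjusted p = 0.0402), while neither treatment was called against control (PAT 0.12 ± 0.08, adjusted p = 0.432; STAT -0.19 ± 0.09, adjusted p = 0.357). Without PAT female 1 the Cd244 difference between PAT and STAT mice was 0.20 (adjusted p = 0.0874), and the call was lost in 7 of the 14 fits that left out 1 array, with an adjusted p of up to 0.0907. The second Cd244 probe set gave 0.12 ± 0.15 (adjusted p = 0.752 in limma).

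**Figure D3:**
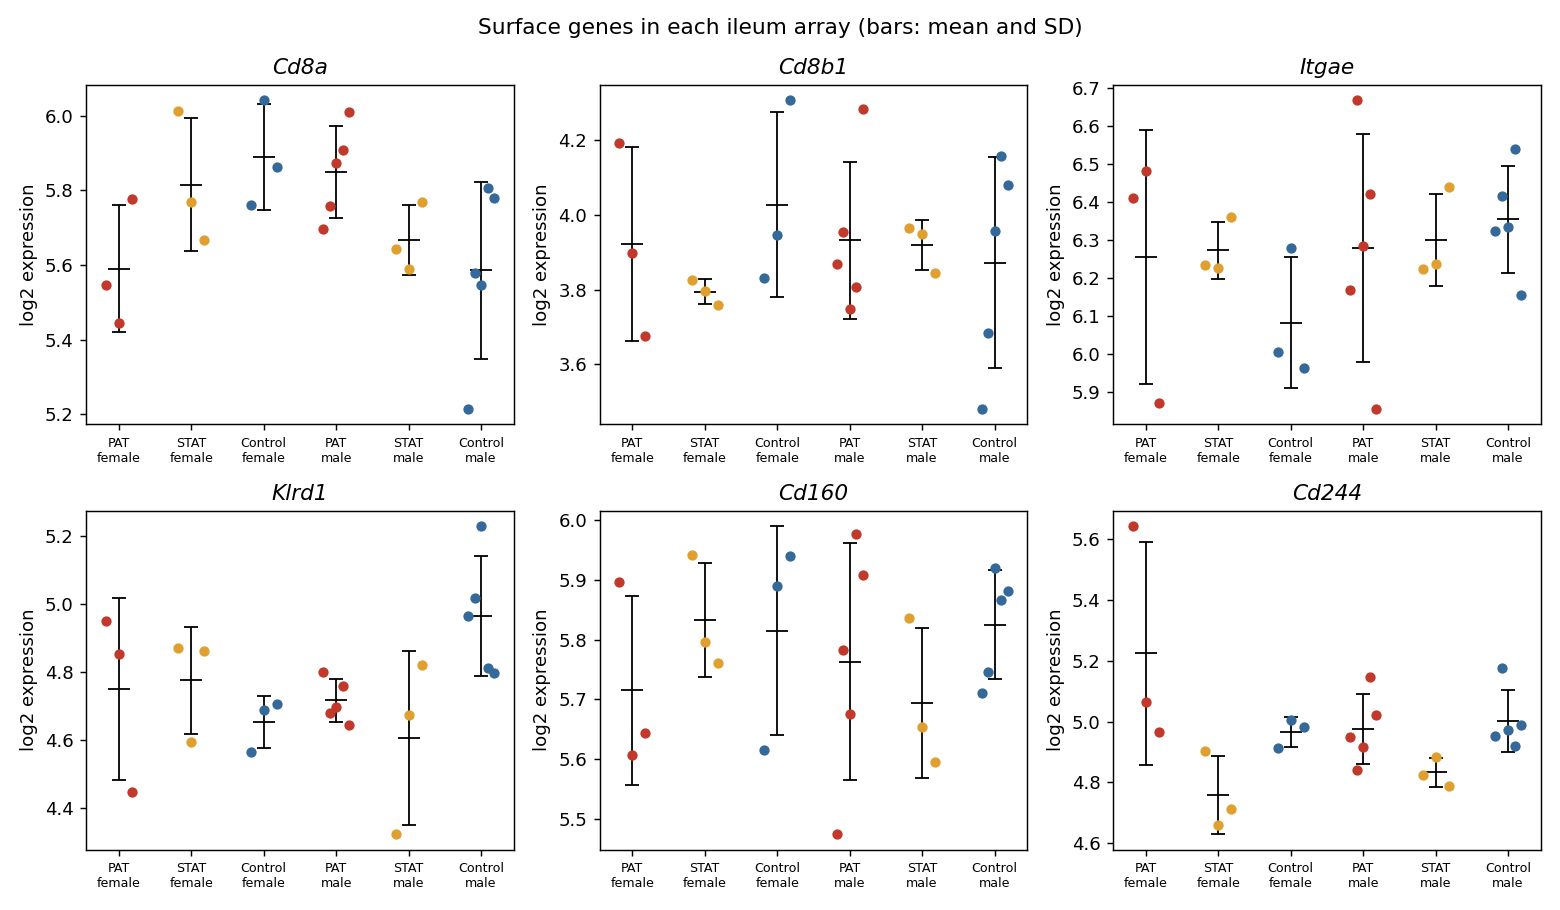
Log2 expression of Cd8a, Cd8b1, Itgae, Klrd1, Cd160 and Cd244 (vertical axes, which do not start at 0) in each of the 22 arrays by treatment and sex; points are arrays, and bars are the group mean and SD. PAT and control arrays overlap in all 6 genes in both sexes, and PAT female 1 is the highest Cd244 array at 5.64.

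**Figure D4:**
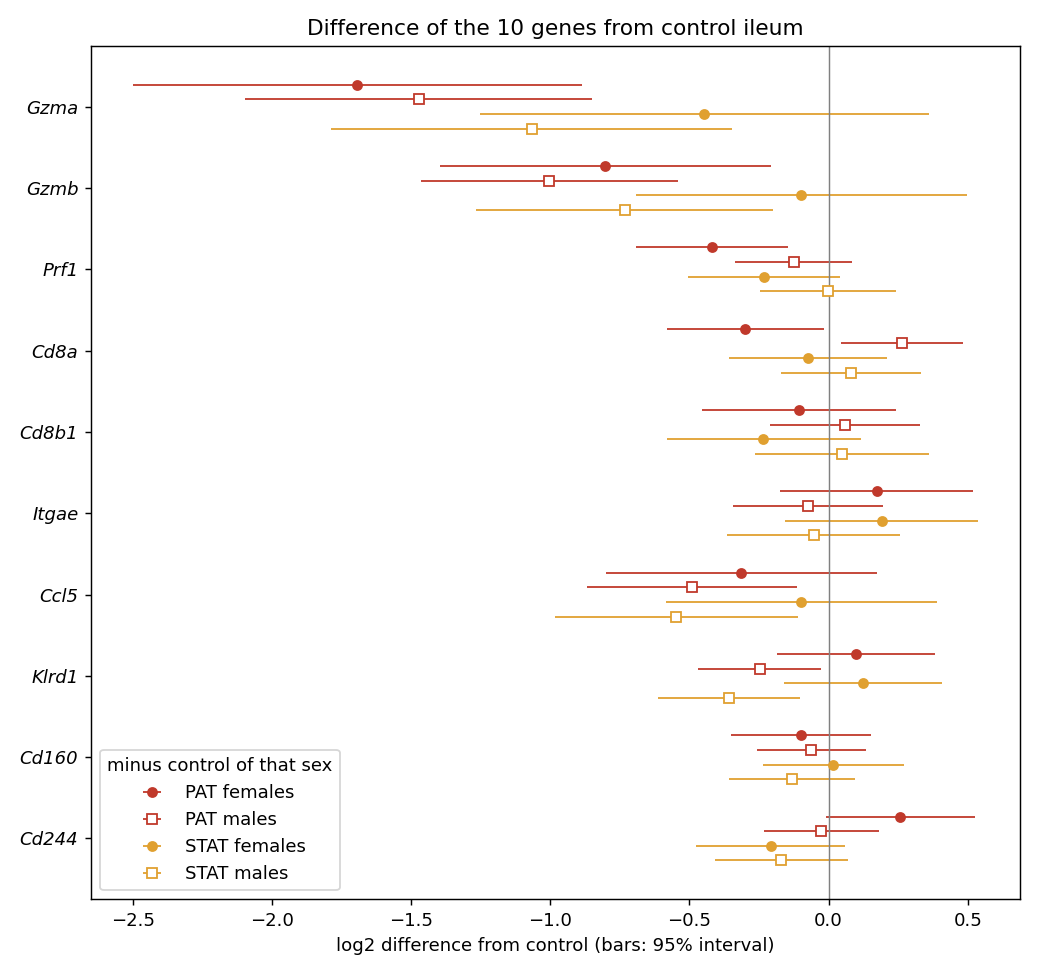
Log2 difference from the control arrays of the same sex (horizontal axis) for each of the 10 genes; red is PAT and yellow STAT, filled circles are females and open squares males, and bars are 95% intervals from limma. The PAT differences of Gzma, -1.69 in females and -1.47 in males, lie farthest from 0.

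Genes that work beside the set were counted in 5 lists. The other granule genes comprised 8 further granzymes, the carrier serglycin (Srgn), the granzyme-activating protease cathepsin C (Ctsc), Fasl, Ifng and others. Of 17 measured, 0 were called with PAT against control in limma, where 4.61% of all genes were called higher and 6.38% lower. At an unadjusted p under 0.05 there were 2 of 17, against 24.1% of all genes. Their median log2 difference was -0.02, against 0.00 over all genes. The 8 further granzymes had PAT differences from -0.06 (Gzmf) to 0.13 (Gzme), with Gzmk at 0.12 ± 0.08 and Gzmm at -0.02 ± 0.08. All of them but Gzmm were dim, with control male means from 3.09 (Gzmd) to 4.66 (Gzmk), so a difference in them may be understated. Nkg7, a granule membrane protein, was at -0.18 ± 0.07 (adjusted p = 0.0855). It was low with STAT too, where it was not called. Nkg7 averaged 5.503 in STAT and 5.757 in control females, and 5.468 in STAT and 5.745 in control males. Its STAT arrays lay below all control arrays in each sex, as for 0.478% of all genes. Against STAT, 1 of the 17 was called higher with PAT, where 2.89% of all genes were. This was Gzmn, at 0.24 ± 0.07 (adjusted p = 0.0464 in limma), and its adjusted p was 0.0725 without PAT female 1.

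Of 28 listed T cell receptor and CD3 genes 14 were measured, and 0 were called with PAT and both sexes together (2 at an unadjusted p under 0.05 in limma), with a median log2 difference of 0.01. Over all genes 4.61% were called higher in that comparison, 6.38% lower, and 24.1% had an unadjusted p under 0.05, which holds beside the next 2 lists too. Cd3e, a signalling chain of the T cell receptor complex, was at 0.01 ± 0.06 and Cd3g at -0.28 ± 0.18 (adjusted p = 0.381), with -0.66 ± 0.22 in males and 0.10 ± 0.29 in females. Of the listed alpha, beta, gamma and delta receptor genes only Tcra and Trgv4 were measured. Trgv4 averaged 4.76 ± 0.24 in PAT and 4.91 ± 0.14 in control females (SD, n = 3 each). In males it averaged 4.70 ± 0.06 with PAT and 4.90 ± 0.14 in controls (SD, n = 5 each). Tcra averaged 3.34 in PAT and 3.32 in control females, and 3.15 in PAT and 3.36 in control males. Both were dim, so a difference in them may be understated. In females Thy1, a T cell surface protein, was higher with PAT by 0.63 ± 0.17 (adjusted p = 0.0481 in limma), and without PAT female 1 its difference was 0.57 (adjusted p = 0.165). Over the 14 genes PAT female 1 had a mean of 5.907, where the other 21 arrays had 5.401 to 5.685. The natural killer receptors and adaptors gave 0 calls among 13 measured (1 at an unadjusted p under 0.05, median 0.04), with the activating receptor gene Klrk1 at 0.07 ± 0.11 and Ncr1 at 0.05 ± 0.09. Many of these receptors were dim, such as Klrk1 with a mean of 4.22 in control males, so a difference in them may be understated. The transcription factors of cytotoxic lymphocytes gave 0 calls among 11 (1 at an unadjusted p under 0.05, median -0.03). Tbx21, which encodes T-bet, was at -0.03 ± 0.06, Eomes at 0.05 ± 0.07, Runx3 at 0.03 ± 0.09 and Prdm1, which encodes Blimp-1, at -0.37 ± 0.16 (adjusted p = 0.152 in limma). Of these, Tbx21 and Eomes were dim too, with means of 3.945 and 4.417 in control males.

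Ligands, receptors and homing partners of the set held 3 called genes among 20 measured, 1 higher and 2 lower with PAT and both sexes together (8 at an unadjusted p under 0.05), with a median log2 difference of -0.03. Over all genes 4.61% were called higher, 6.38% lower and 24.1% had an unadjusted p under 0.05, so these counts are near the background for calls. Ccr1, a chemokine receptor that binds Ccl5 and is best known on myeloid cells, rose by 0.54 ± 0.13 (adjusted p = 0.00859 in limma; 0.45 without PAT female 1, adjusted p = 0.0338). Il15ra, which encodes the receptor chain that presents the lymphocyte survival factor IL-15, fell by 0.33 ± 0.09 (adjusted p = 0.0177), and Il15 itself was at -0.25 ± 0.21 (adjusted p = 0.516). Tnfrsf14, which encodes HVEM, the ligand of CD160, fell by 0.35 ± 0.10 (adjusted p = 0.0259), and its adjusted p was 0.0609 without PAT female 1. With the Gapdh difference as a covariate neither Il15ra (adjusted p = 0.126) nor Tnfrsf14 (adjusted p = 0.141) was called, while Ccr1 was (adjusted p = 0.0366 in limma). The remaining partners included Cdh1, which encodes E-cadherin, at 0.07 ± 0.07, Cd48 at 0.07 ± 0.16, and H2-T3, the gene of the TL antigen that binds CD8 alpha homodimers, at -0.26 ± 0.10 (adjusted p = 0.0948). With STAT 0 of the 75 measured genes of the 5 lists were called against control in limma, with both sexes together, as was the case for all 18193 genes.

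**Figure D5:**
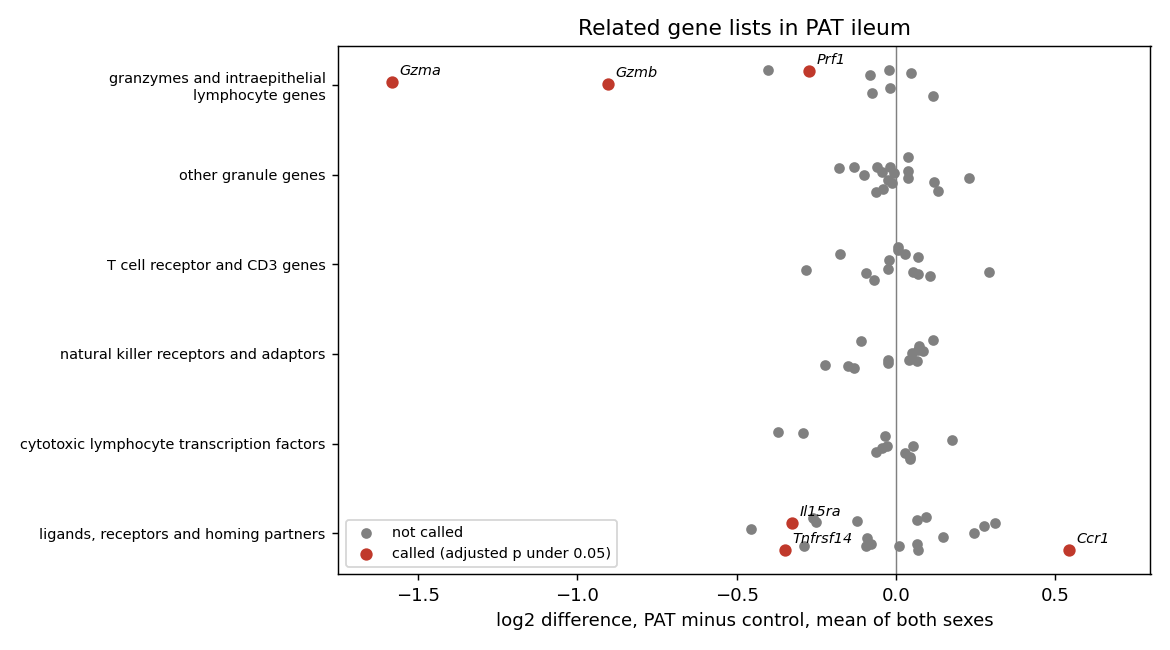
Log2 difference, PAT minus control with both sexes together (horizontal axis), of each measured gene of the set and of 5 related lists; red points are genes called by limma at an adjusted p under 0.05 and grey points are not called. Gzma at -1.58 and Gzmb at -0.90 lie outside the range of the other genes shown, and Ccr1 at 0.54 is the one called gene above 0.

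Genes whose level followed Gzma most closely over the 22 arrays were found among 11447 genes whose mean was 6 or more. Cyp3a25, a cytochrome P450, had a Pearson r of 0.869, the carboxylesterase Ces2a 0.868, Arrdc4 0.868, Cd47, which encodes a surface signal against phagocytosis, 0.859, and Tnfsf13b, which encodes the B cell survival factor BAFF, 0.853. All 22 arrays share the treatment differences, and after removal of the group means r was 0.645, 0.751, 0.624, 0.798 and 0.525 in the same order. The 10 genes were also averaged after each was scaled to the same mean and spread over the arrays. Closest to that average were Rgs14 (r = 0.785), Psmb8 (0.76), Podn (0.752), Gbp6 (0.736) and Ccl20 (0.723). After removal of the group means r was 0.718, 0.75, 0.713, 0.698 and 0.581 in the same order.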

How the data were processed

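Terminal ileum RNA of 22 NOD samples was measured on Affymetrix arrays of 1 colour. The deposited table holds log2 expression values for 45101 probe sets, made by the authors with RMA (affy package), according to the submitters' processing notes; the sources used here give no versions or scan dates. Column medians lay between 5.68 and 5.79, and none of the 231 pairs of arrays held identical values. RMA compresses low values, which understates fold changes of dim genes, and the number of arrays limits the precision.

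From these values, probe sets with exactly 1 gene symbol in the platform annotation (34945) were used, 64 control probe sets were set apart for the RNA integrity measures, and the probe set of highest mean stood for a gene, which left 18193 genes. A mean per treatment and sex (6 groups) was fitted to all 22 arrays with limma 3.58.1 in R 4.3.3 (lmFit and eBayes, 16 residual degrees of freedom plus 4.88 from the prior). P-values are two-sided and adjusted by Benjamini-Hochberg over all genes of each of 10 comparisons. The fit was tested on simulated data. Errors of group levels are SD, and errors of differences are SE.

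Groups came from the treatment and sex labels. The members, the lists of related genes and the rule for naming genes (all members, called genes of the lists, and the 5 genes most like Gzma or the members' mean) were chosen with earlier results of these data known. Genes of the lists that were not called were picked as examples after their values were seen. Alternatives were the mean of probe sets, every probe set alone, genes with a mean of at least 6, repeated quantile normalization, median centring, array weights, only the groups compared, the Gapdh or beta-actin end difference as a covariate, leaving out each array, and leaving out STAT males 2 and 3. For called genes of the related lists, 2 alternatives (without PAT female 1, and the Gapdh covariate) were added after seeing the data.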

Additional observations from a re-analysis of the deposited data

Results flagged for a closer look

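One control male array stood apart from its group in 1 gene. Cd244 was at 5.18 in control male 2, against 4.92 to 4.99 in the other 4 control males, a gap past Dixon's 95% critical value for 5 samples. Of 20 groups checked (the 10 genes in PAT males and in control males) this was the 1 so marked, and chance marks about 1 in 20. Group sizes of 3 were not checked.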

How the results depend on the processing

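Of the number of the 10 genes called per comparison, most settings left the count within 1.5 times. For PAT against control with both sexes together it was 3, and 1 (Gzma) with the Gapdh difference as a covariate. In PAT males it was 2 (Gzma and Gzmb); with the Gapdh covariate it was again 2, but Klrd1 stood in place of Gzmb, and it was 3 with the beta-actin covariate (Klrd1 added) and without PAT male 5 (Ccl5 added). In PAT females it was 1, and 3 with array weights, 0 with the Gapdh covariate, 2 with only the groups compared, and 0 to 1 when 1 array was left out. For STAT against control it was 0, and 2 with array weights with both sexes together and 3 in males; leaving out 1 array gave 0 to 2 in both, with 2 (Gzma and Gzmb) without STAT male 1. For PAT against STAT it was 1 (Cd244), and 0 with averaged probe sets or with only the groups compared, 2 with array weights, with the Gapdh covariate or without STAT males 2 and 3, 3 with the beta-actin covariate, and 0 to 2 when 1 array was left out. The cause of these shifts was not tested. With array weights the STAT difference of both sexes was -1.04 for Gzma (adjusted p = 0.00337 in limma) and -0.58 for Gzmb (adjusted p = 0.0143).

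Gzma with PAT and both sexes together kept its call in all 16 fits without 1 array and in all 9 other settings (-1.69 to -1.21). Gzmb kept it in 16 of 16 and 8 of 9. For genes that were not called with PAT, the sign turned in some fits that left out 1 array, over which the log2 difference ran from -0.065 to 0.020 for Cd8a, -0.090 to 0.048 for Cd8b1, -0.008 to 0.145 for Itgae and -0.125 to 0.001 for Klrd1. No paired analysis was possible because the labels give no replicate numbers that groups share; the numbers used here follow accession order. Leaving out STAT males 2 and 3 leaves 1 array in that group, which is assumed to vary like the others. Depth has no counterpart on arrays, and without detection calls no gene of the set has a stated margin over background. Cd8b1, Klrd1 and Cd244 were the dimmest of the set, with means over all arrays of 3.91, 4.76 and 4.96.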
